A study of Rattus norvegicus with 26 samples.

Results

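Transcripts of AP-2 family members and of other transcription factors known from trophoblast were followed on arrays while rat multipotent adult progenitor cells (rMAPCs) were driven towards smooth muscle cells (SMCs). The 10 genes were *Tcfap2a*, *Tcfap2b*, *Tcfap2c*, *Tcfap2e*, *Gata2*, *Gata3*, *Cdx2*, *Elf3*, *Elf5* and *Ascl2*, chosen from the array by gene name. Each name stood on 1 of the 41012 different gene probes, so the rule that took the brightest probe of a gene had nothing to decide. A gene was kept when the scanner software called its probe well above background on at least 1 of 26 arrays, which left 9 of 10 genes. *Elf5* was well above background on 0 of 26 arrays, with log2 levels from 0.19 to 1.28, and was left out of the comparisons. The kept genes nearest to this limit were *Tcfap2a* and *Tcfap2b*, each well above background on 3 of 26 arrays. Detection chose the genes, so that they were detected is no finding.

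AP-2 proteins bind GC-rich DNA as dimers and direct genes of epithelium, neural crest and placenta. In the early rodent embryo the caudal-type factor CDX2, the zinc finger factor GATA3, AP-2γ (encoded by *Tcfap2c*) and the ETS factor ELF5 act together in trophoblast stem cells, while GATA2 and the basic helix-loop-helix factor ASCL2 also act in later trophoblast. TGFβ, part of the treatment used here, signals through SMAD proteins.

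Lines Cl19 and 3c3 are each 1 clone of *Oct4*-expressing rMAPCs from the bone marrow of female Fischer rats, Cl19 from rats of 3 weeks and 3c3 from rats at E18, before birth. Both lines were harvested at the start (d0) and after 2, 4 and 6 days (d2, d4 and d6) with TGFβ1 and PDGF-BB in basal rMAPC medium without serum, with 3 arrays per line and day. Primary SMC RNA, the positive control, was on 2 arrays, and the labels and the methods name different suppliers for it. The study's text calls the 3 arrays biological replicates, but the labels name no separate cultures, so the p-values measure the spread between these arrays, and the number of arrays limits the precision. No cells were kept for 6 days without the factors, so the factors, the serum-free medium and time in culture cannot be told apart.

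Levels are log2 intensities after quantile normalization over the 26 arrays. Changes were tested with limma over 24441 probes, those that all arrays of 1 or more of the 9 groups showed well above background, and a change passed when its adjusted p was below 0.05. All 9 kept genes were among these probes, *Tcfap2a* and *Tcfap2b* through primary SMCs alone and *Gata3* through Cl19 at d4 and d6 alone. A gene could thus enter by being high in a group later compared, so counts over the 9 genes are descriptions. Where an array of the dimmer group lacked a signal well above background, the fold is a lower bound, taken against the higher of the gene's level and the lowest signal well above background on each array of that group. Where the gene's level was the higher throughout, as for *Gata2* in Cl19 at d0, this equals the fitted fold and is no bound. The bounds were taken on the quantile-normalized levels, and other processing can give smaller changes. The arrays measured bulk RNA, so fewer cells that express a gene and less RNA per cell cannot be told apart. Each of 6 slides held d0, d2, d4 and d6 of 1 replicate of 1 line in this order, so day and position on the slide cannot be told apart. Each of 3 scan days held 1 line or the primary SMCs, so differences in level between lines or from primary SMCs and the scan day cannot be told apart.

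Replicate 1 of Cl19 at d2 stood apart. Its root mean square log2 difference was 0.38 to 0.54 from the 3 arrays of 3c3 at d2 but 0.92 and 0.88 from the other arrays of Cl19 at d2. For *Tcfap2c*, *Tcfap2e*, *Gata2*, *Cdx2* and *Ascl2* the Cl19 change from d0 to d2 is therefore also given without it, while steps from d2 to d4 are given with it only. The slide with replicate 3 of 3c3 had a median signal of 28.1 to 44.7 over the negative controls, where the 22 remaining arrays had 11 to 13.9. Of its gene features 43.2% to 51.8% were well above background, against 53.7% to 57.1% on the other 3c3 arrays, 52.7% to 61.4% in Cl19 and 43.6% and 44.5% in primary SMCs. Before normalization the median log2 intensity was 1.62 and 1.85 on the primary SMC arrays, against 2.86 to 4.12 in the lines. Comparisons of dim genes with primary SMCs thus depend on the normalization.

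From d0 to d6 *Tcfap2e* fell and *Cdx2* rose in both lines. *Gata3* and *Gata2* passed the test with a rise in Cl19, and *Ascl2* with a rise and *Tcfap2c* with a fall in 3c3. *Tcfap2a* and *Tcfap2b* were close to background in nearly all arrays of both lines and clearly present in primary SMCs. Of the 9 genes 6 passed the F-test over time in Cl19, where 54.3% of all tested probes did, and 7 passed in 3c3, where 50% did. From d0 to d6, 3 genes rose and 1 fell in Cl19, beside 52.2% of all tested probes that passed, and 2 rose and 2 fell in 3c3, beside 48.2%. With 9 genes, some chosen by detection in the groups compared, these shares say nothing particular about them. Over all tested probes 5371 were higher and 7394 lower at d6 in Cl19, with 4803 and 6989 in 3c3, with median changes of -0.20 and -0.21. In the authors' log2 table as deposited, which was not normalized between arrays, the medians were 0.10 and 0.09 and the counts 6771 higher and 5396 lower in Cl19, and in 3c3 6167 were higher and 4758 lower. The directions named here for *Tcfap2e*, *Cdx2*, *Gata3*, *Gata2*, *Ascl2* and *Tcfap2c* were the same in that table.

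**Figure D1:**
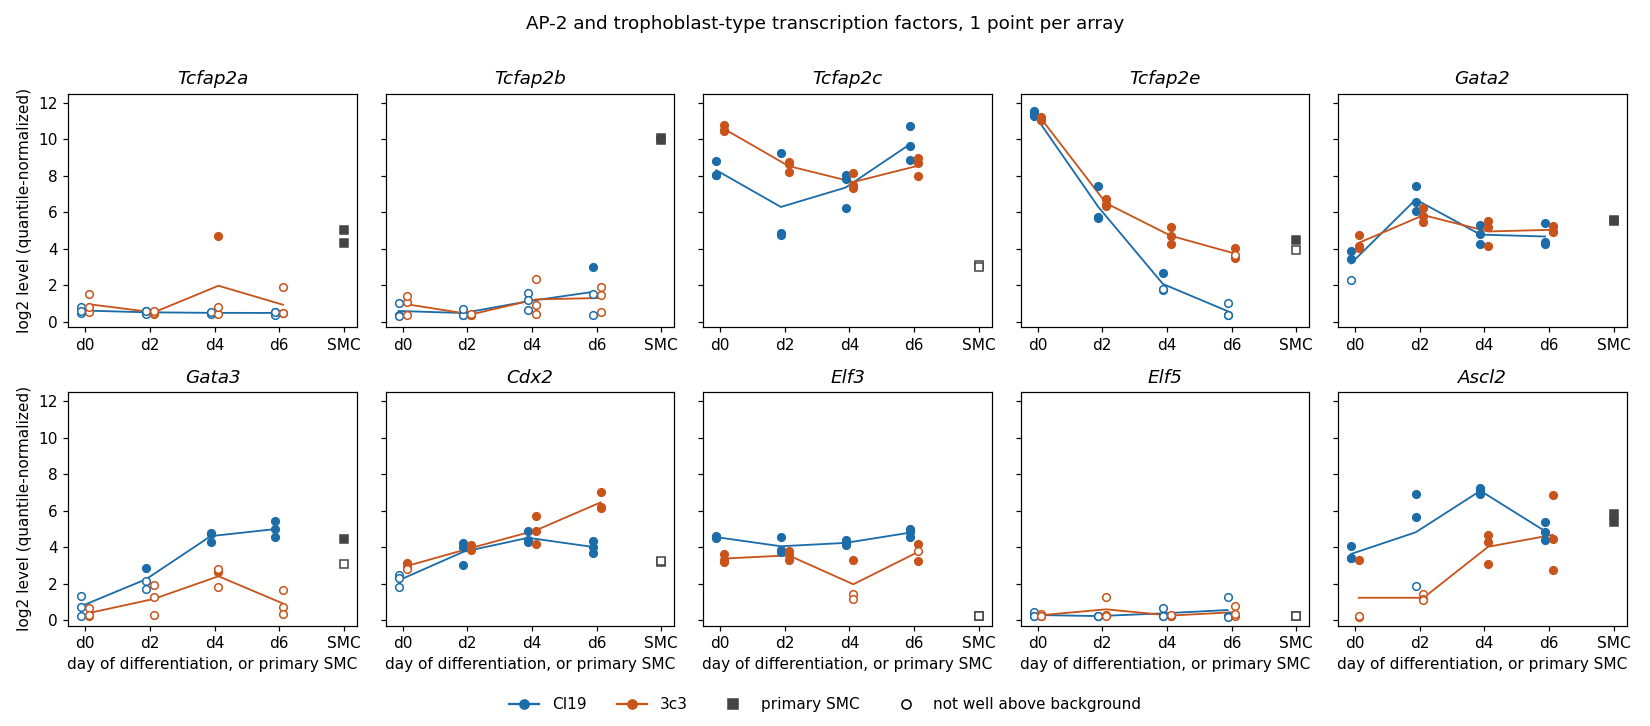
Log2 level of each of the 10 genes (vertical axis) on every array, by line and day and in primary SMCs (horizontal axis), with open symbols where the probe was not well above background. *Tcfap2e* goes down from 11.40 at d0 in Cl19 and 11.11 in 3c3, *Cdx2* goes up in both lines, and *Tcfap2b* is high on the 2 primary SMC arrays.

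*Tcfap2e* encodes AP-2ε, the family member known from the olfactory bulb and cartilage, and its probe lies on chromosome 5 (146129306 to 146129365 in the rat assembly rn4). In Cl19 its log2 levels were 11.55, 11.25 and 11.39 at d0, 7.44, 5.71 and 5.72 at d2, 2.65, 1.74 and 1.80 at d4, and 0.37, 1.02 and 0.34 at d6. Each day lay below the day before with no overlap, and 1 array at d4 and 0 at d6 were well above background. In 3c3 the levels were 11.22, 11.06 and 11.05 at d0, 6.43, 6.74 and 6.32 at d2, 5.18, 4.68 and 4.26 at d4, and 4.04, 3.47 and 3.66 at d6. Here too the days did not overlap, but the gene was still well above background on 2 of 3 arrays at d6. Both lines thus began at like levels, lost most of the linear signal by d2 and were far apart at d6. At d2 all but replicate 1 of Cl19 were already below the 3c3 arrays.

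By d2 *Tcfap2e* fell by 5.11 in Cl19 (SE 0.37, adjusted p = 1e-08) and by 4.61 in 3c3 (SE 0.37, adjusted p = 4.1e-08), lower in 3 of 3 slides of each line. Without replicate 1 of Cl19 at d2 the fall in Cl19 was larger (-5.68, adjusted p = 1.8e-10), and the mean level at d2 was 5.72 in place of 6.29. At d6 it was at least 707-fold lower than at d0 in Cl19 (adjusted p = 1.2e-13), and 3c3 had a fall of at least 148-fold (adjusted p = 2.2e-11). The fitted fall at d6 was -10.82 in Cl19 and -7.38 in 3c3. The replicate block, with slide as a fixed effect, cannot move these values, since every slide held every day. With normexp background correction they were -5.33 and -4.70. Among all 24441 tested probes *Tcfap2e* had the largest fitted fall in both lines. It kept rank 1 in both with scaling by the 75th percentile and in the authors' table. Its normexp ranks were 12 and 2, and with dim values raised to a floor 2 and 1.

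A difference between the lines in the steps after d2 was not tested. From d2 to d4 *Tcfap2e* fell at least 17.9-fold in Cl19 (adjusted p = 1.1e-06), with replicate 1 of d2 included. In 3c3 it fell 3.45-fold, or by 1.79 log2 units (adjusted p = 0.0055). From d4 to d6 it passed the test again in Cl19 (adjusted p = 0.018), between groups with 1 and 0 arrays well above background, and not in 3c3 (-0.98, adjusted p = 0.096). The fall over 6 days was larger in Cl19 by 3.43 log2 units on the fitted scale, a difference of -3.43 (SE 0.52, adjusted p = 9.8e-05). Cl19 was below the background limit at d6, and the difference was -2.26 with dim values raised to the floor (adjusted p = 0.0054) and -0.63 with normexp background correction (adjusted p = 0.082), which ended the call. Over all alternatives the adjusted p ran from 6.7e-05 to 0.082. In primary SMCs the levels were 3.95 and 4.49, of which 1 was well above background, near the 3c3 levels at d6 (difference 0.49, adjusted p = 0.29) and above Cl19 at d6 in the test (adjusted p = 1.6e-07), where 0 of 3 arrays were detected. Values of these comparisons under the alternatives are not given. For *Gata2* and *Ascl2* the differences from primary SMCs turned in the authors' table.

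*Tcfap2c*, whose protein AP-2γ is needed for trophoblast and for germ cells, followed a different course (probe on chromosome 3, 163466731 to 163466790 in rn4). In Cl19 its levels were 8.83, 8.07 and 8.01 at d0, 9.27, 4.86 and 4.73 at d2, 6.23, 7.80 and 8.02 at d4, and 9.63, 10.73 and 8.85 at d6. The array that stood apart at d2 was thus the highest of its group by far, the other d2 arrays were the lowest of the line, and d6 was above d0 on every slide. The 3c3 levels were 10.76, 10.43 and 10.52 at d0, 8.65, 8.22 and 8.73 at d2, 8.15, 7.30 and 7.52 at d4, and 8.95, 7.98 and 8.70 at d6. All later 3c3 arrays lay below all d0 arrays, and d4 was the lowest day.

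The F-test over time of *Tcfap2c* passed in Cl19 (adjusted p = 0.0073) and in 3c3 (adjusted p = 0.028), but with all arrays a change from d0 passed in 3c3 alone. It was lower there by d4 (-2.92, SE 0.81, adjusted p = 0.0077) and at d6 (-2.03, SE 0.81, adjusted p = 0.044), in 3 of 3 slides each, while the d2 value was -2.04 (adjusted p = 0.087), also in 3 of 3 slides, a call gained in a fit of 3c3 alone and with normexp background correction (all alternatives 0.00095 to 0.26). The call at d6 was lost when any 1 of the 6 arrays of d0 and d6 was left out (values from -2.23 to -1.74, adjusted p from 0.055 to 0.13), and with the replicate block (-2.03, adjusted p = 0.054), with adjusted p from 0.00031 to 0.14 over all alternatives. At d4 it was lost without the slide of replicate 3 (-2.87, adjusted p = 0.072; all alternatives 6.1e-05 to 0.072). In Cl19 the change at d6 was 1.43 (SE 0.81, adjusted p = 0.15) and at d2 -2.02 (adjusted p = 0.081). Without replicate 1 of Cl19 at d2 the d2 value was -3.51 and passed (adjusted p = 3.1e-05; all alternatives 3.1e-05 to 0.22), and the d2 mean was 4.80 in place of 6.29.

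The d6 change of *Tcfap2c* differed between the lines by 3.46 (SE 1.14, adjusted p = 0.041), up in 3 of 3 slides of Cl19 and down in 3 of 3 of 3c3. This call was lost in 9 of 12 fits that left out 1 array of d0 or d6 (values over all 12 from 2.96 to 3.90, adjusted p up to 0.11), namely without replicate 2 or 3 of Cl19 at d0, replicate 1 or 2 of Cl19 at d6, any replicate of 3c3 at d0, or replicate 2 or 3 of 3c3 at d6. It was also lost with the replicate block (adjusted p = 0.0503; all alternatives 0.0072 to 0.13). Both primary SMC arrays were below the background limit for *Tcfap2c* (3.10 and 2.99). Cl19 at d6 was at least 62.4-fold above them (adjusted p = 1.7e-06) and 3c3 at d6 at least 27.3-fold (adjusted p = 1.9e-05). In the order of the means, 3c3 at d0 was first (10.57), then Cl19 at d6 (9.74), and 3c3 at d6 and d2 lay side by side (8.55 and 8.53), closer than their spread.

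*Tcfap2b* (chromosome 9, 18077948 to 18078007 in rn4) encodes AP-2β, which acts in smooth muscle of the ductus arteriosus and in the neural crest. Its levels were 10.07 and 9.97 in primary SMCs and at most 2.98 on the 24 arrays of the lines. The 1 line array well above background was replicate 1 of Cl19 at d6, with 2.98, beside 1.53 and 0.38 in its group. Primary SMCs were at least 245-fold above Cl19 at d6 (adjusted p = 1.3e-10) and at least 147-fold above 3c3 at d6 (adjusted p = 7.2e-11), with no overlap. *Tcfap2a* (chromosome 17, 30029229 to 30029288 in rn4), which encodes the neural crest and skin regulator AP-2α, stood at 5.02 and 4.34 in primary SMCs. It was below the background limit on 23 of 24 arrays of the lines, and the exception was replicate 2 of 3c3 at d4 with 4.69, beside 0.43 and 0.78 in its group. Primary SMCs were at least 6.71-fold above Cl19 at d6 (adjusted p = 6.7e-05) and at least 3.61-fold above 3c3 at d6 (adjusted p = 0.00022). Neither gene passed a test of change in time in Cl19 or 3c3. They entered the test through the primary SMCs alone, so these comparisons describe how they were chosen.

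The other AP-2 gene, *Tfap2d*, and listed partners and inhibitors of AP-2 were looked at next. The counts of this and every other list stand beside 5371 higher and 7394 lower probes of 24441 at d6 in Cl19 and 4803 and 6989 in 3c3. As with the members, a listed gene could enter the test by being high in a treated or primary group, so its rise is in part fixed by that choice and the counts are descriptions. Of 11 listed genes 10 had a probe and 9 were tested, of which 3 were higher and 3 lower at d6 in Cl19, and in 3c3 2 were higher and 3 lower (medians 0.12 and -0.13, the first turning to -0.22 with scaling by the 75th percentile). *Tfap2d* was well above background on 1 of 26 arrays and was not tested. Among the CITED coactivators that AP-2 proteins recruit to DNA, *Cited4* rose furthest, from a mean of 2.62 at d0 to 9.39 at d6 in Cl19 and from 2.77 to 8.04 in 3c3 (change at d6 6.78, adjusted p = 2.5e-08, and 5.26, adjusted p = 1.1e-06, on the fitted scale). *Wwox*, whose protein holds AP-2γ in the cytoplasm, was lower on the fitted scale (-1.62, adjusted p = 0.030, and -1.92, adjusted p = 0.013), with 2 of 3 and 1 of 3 arrays well above background at d6, as was *Yeats4* (-0.48, adjusted p = 0.00082, and -0.78, adjusted p = 7.3e-06).

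More of the known AP-2 target genes were higher than lower at d6 in both lines. Of 18 listed genes all had a probe and 17 were tested, of which 14 were higher and 1 lower at d6 in Cl19, and in 3c3 10 were higher and 1 lower, and 10 were higher in both. *Erbb3*, *Egfr* and *Igfbp5* were below the background limit on every d0 array and entered the test through later or primary groups. The median change was 2.84 in Cl19 and 1.63 in 3c3, beside -0.20 and -0.21 over all tested probes, 3.12 and 2.02 in the authors' table beside 0.10 and 0.09, and 1.1 and 0.34 with normexp background correction beside -0.06 and -0.06. Among those 10 the largest mean changes of both lines were those of *Igf1r*, the IGF1 receptor (6.69, adjusted p = 9.1e-09, and 3.25, adjusted p = 8.8e-05), *Erbb3*, a receptor of the EGF receptor family (5.48, adjusted p = 1.3e-09, and 4.45, adjusted p = 3.5e-08), *Cdh1*, which encodes E-cadherin (3.28, adjusted p = 2.1e-08, and 4.02, adjusted p = 2.9e-09), and the desmosomal gene *Dsp* (3.36, adjusted p = 5.4e-09, and 3.33, adjusted p = 1.2e-08). *Igf1r* was below this limit on 1 of 3 d0 arrays in each line, so its values and those of *Erbb3* are fitted changes and their order is uncertain. *Igfbp5* passed in Cl19 alone. *Krt18* was the brightest gene of the list in every line and day, and the summed linear signal was 134200 to 143300 at d0 and 266300 to 287200 at d6 in Cl19, 137200 to 146800 and 224900 to 228900 in 3c3, and 13700 to 13910 in primary SMCs. Several of these genes are epithelial, and the part that any AP-2 gene had in their change was not tested.

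**Figure D2:**
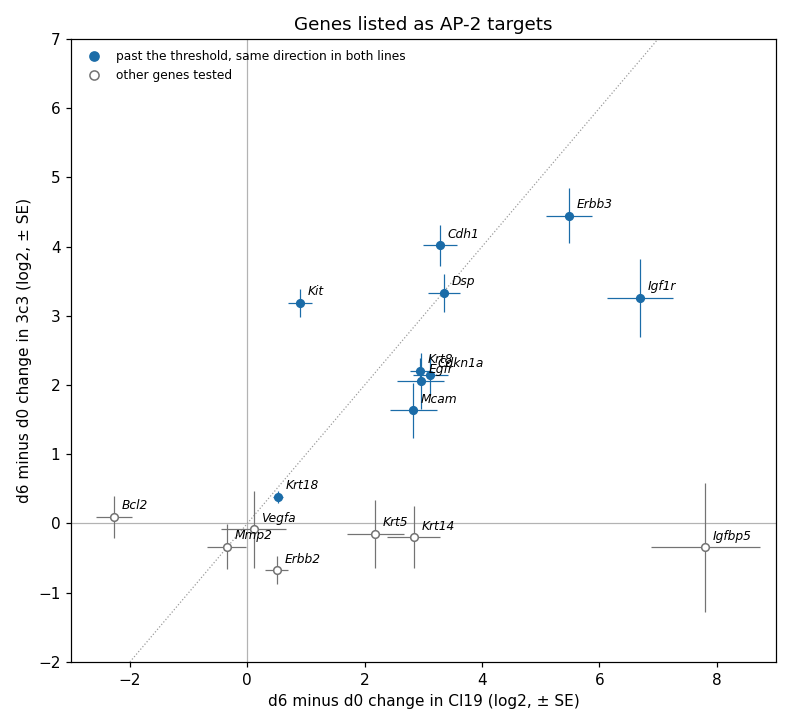
Log2 change from d0 to d6 of 17 tested AP-2 target genes in 3c3 (vertical axis) against Cl19 (horizontal axis), with filled symbols where both lines passed the test in the same direction. The 10 filled genes all lie above 0 on both axes.

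*Gata3* (chromosome 17, 79991712 to 79991771 in rn4), which can turn embryonic stem cells towards trophoblast, came up in Cl19. Its levels there were 1.33, 0.74 and 0.23 at d0, 2.15, 1.70 and 2.87 at d2, 4.78, 4.30 and 4.74 at d4, and 5.44, 5.0 and 4.53 at d6. It was below the background limit on every d0 array and above it on every d4 and d6 array, with no overlap. Levels in 3c3 were 0.68, 0.23 and 0.26 at d0, 1.29, 1.91 and 0.28 at d2, 1.79, 2.64 and 2.78 at d4, and 0.74, 1.65 and 0.33 at d6. Only replicate 2 at d4 was well above background there. *Gata3* was at least 4.74-fold higher at d4 than at d0 in Cl19 (adjusted p = 1.2e-06) and at least 6.20-fold at d6 (adjusted p = 2.3e-07), in 3 of 3 slides. Over all alternatives the fitted log2 change ran from 0.48 to 4.48 at d4 and from 0.60 to 4.97 at d6. The adjusted p ran up to 0.00055 and 0.0040. The fitted change at d2 was 1.47 (adjusted p = 0.024), and the d2 mean was 2.24, or 2.29 without replicate 1. *Gata3* entered the test through Cl19 at d4 and d6 alone, so these rises in part describe how it was chosen.

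In 3c3 the fitted *Gata3* change passed at d4 (2.01, adjusted p = 0.0018), though 1 of 3 arrays was well above background. The fitted step from d4 to d6 passed as well (-1.50, adjusted p = 0.040). It lies between groups with 1 and 0 arrays well above background, and levels this near background give no reliable step. From d0 to d6 the change was 0.52 (adjusted p = 0.37). The d6 changes differed by 3.70 between the lines (SE 0.64, adjusted p = 0.00037), by 2.48 with dim values raised to the floor (adjusted p = 0.0125) and by 0.62 with normexp background correction (adjusted p = 0.0014). With the replicate block the difference was 3.70 (adjusted p = 0.00030), and the adjusted p over all alternatives ran from 0.00025 to 0.0125. *Gata3* entered the test through Cl19 at d4 and d6 alone. This difference, and the comparison of Cl19 with primary SMCs below, thus in part describe how it was chosen. Primary SMCs had 4.43 and 3.08, the first of them well above background. They were below Cl19 at d6 (Cl19 at least 1.95-fold higher, adjusted p = 0.035), a call lost with scaling by the 75th percentile (adjusted p = 0.17), without a filter (adjusted p = 0.053) and with the floor (adjusted p = 0.11; all alternatives 2.2e-05 to 0.17), and above 3c3 at d6 in the test (adjusted p = 5e-05), with 1 of 2 and 0 of 3 arrays detected.

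*Gata2* (chromosome 4, 122287400 to 122287459 in rn4), a factor of blood stem cells, endothelium and trophoblast giant cells, peaked early. In Cl19 its levels were 3.89, 3.41 and 2.28 at d0, 6.09, 6.58 and 7.42 at d2, 5.27, 4.80 and 4.25 at d4, and 5.38, 4.27 and 4.35 at d6. All d2 arrays lay above all others of the line, and all d4 and d6 arrays above the d0 arrays. The levels in 3c3 were 4.15, 4.78 and 4.04 at d0, 6.25, 5.45 and 5.82 at d2, 5.17, 4.17 and 5.50 at d4, and 5.24, 4.92 and 4.96 at d6. The d2 arrays were again above the d0 arrays, while d4 overlapped with both. In Cl19 the fitted change from d0 to d2 was 3.50, or 11.3-fold (adjusted p = 7.7e-06), and 3.81 without replicate 1 of d2. The d0 array without a signal well above background counted with its measured level, so this fold is no lower bound. Over all alternatives the change ran from 1.27 to 3.81 (adjusted p up to 0.00094). *Gata2* then fell from d2 to d4 in Cl19 (-1.92, adjusted p = 0.0039). In 3c3 the rise at d2 was 1.52 (SE 0.43, adjusted p = 0.018), and without the slide of replicate 3 it was 1.39 and did not pass (adjusted p = 0.15; all alternatives 0.0031 to 0.15).

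At d6 *Gata2* was 2.78-fold above d0 in Cl19 on the fitted scale (1.47, SE 0.43, adjusted p = 0.0075), in 3 of 3 slides. The call was lost without replicate 3 of d0 (1.02, adjusted p = 0.065) or without replicate 1 of d6 (adjusted p = 0.054), with normexp background correction (0.35, adjusted p = 0.092) and with the methods' t-test (adjusted p = 0.12; all alternatives 0.00059 to 0.12). In 3c3 the change was 0.72 (adjusted p = 0.19), which passed in the authors' table (1.11, adjusted p = 0.038; all alternatives 0.038 to 0.43). The differences between the lines did not pass, neither at d2 (1.98, adjusted p = 0.25) nor at d6 (0.76, adjusted p = 0.50). Primary SMCs stood at 5.59 and 5.49, which was 0.87 above the d6 mean of Cl19 (adjusted p = 0.12) and 0.50 above that of 3c3 (adjusted p = 0.36). In the authors' table these differences turned to -1.43 (adjusted p = 0.0094; all alternatives 0.0094 to 0.17) and -1.63 (adjusted p = 0.0037; all alternatives 0.0037 to 0.56).

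Other GATA genes were counted too. Of 12 listed GATA family members and partners 10 had a probe and 9 were tested. At d6, 3 were higher and 4 lower in Cl19, where 52.2% of all tested probes passed in either direction. In 3c3 1 was higher and 2 lower, where 48.2% of all tested probes passed. The medians were -0.37 and -0.40, and 0.15 and -0.04 in the authors' table. *Gata1*, the red cell factor, fell in both lines (-5.23, adjusted p = 1.9e-08, and -1.63, adjusted p = 0.0067), as did the endoderm factor *Gata6* (-3.31, adjusted p = 1e-08, and -1.47, adjusted p = 0.00024). *Ldb1*, which encodes a bridging partner, rose (1.66, adjusted p = 4.8e-05, and 2.03, adjusted p = 7.2e-06). The summed signal went from 22540 to 26500 at d0 to 8213 to 9616 at d6 in Cl19 and from 25340 to 27280 to between 13070 and 15630 in 3c3.

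*Cdx2* (chromosome 12, 8303345 to 8303404 in rn4), which specifies the trophectoderm and later the hindgut, rose in both lines. In Cl19 its levels were 2.46, 2.29 and 1.80 at d0, 4.21, 3.01 and 4.02 at d2, 4.86, 4.40 and 4.28 at d4, and 3.66, 4.03 and 4.35 at d6. All later arrays were well above background and above all d0 arrays, which were not. Those of 3c3 were 2.93, 3.13 and 2.82 at d0, 4.09, 3.94 and 3.84 at d2, 5.70, 4.18 and 4.89 at d4, and 7.05, 6.19 and 6.12 at d6. Each day lay above the day before in 3c3 with no overlap, and 2 of 3 d0 arrays were already well above background.

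*Cdx2* was at least 2.56-fold higher at d2 than at d0 in Cl19 (adjusted p = 0.0025), at least 4.35-fold at d4 (adjusted p = 1.7e-05) and at least 3.07-fold at d6 (adjusted p = 0.00017), in 3 of 3 slides each. Without replicate 1 of Cl19 at d2 the fitted d2 change was 1.33 in place of 1.56 (adjusted p = 0.0135; all alternatives 0.00039 to 0.22). With normexp background correction the Cl19 changes at d2 and d6 did not pass (0.22, adjusted p = 0.22, and 0.26, adjusted p = 0.085, with 6.9e-06 to 0.085 over all alternatives for d6). In 3c3 it was at least 1.85-fold higher at d2 (adjusted p = 0.0498, lost in 6 of 8 alternatives, which ran from 0.0092 to 0.60), at least 3.61-fold at d4 (adjusted p = 0.00021) and at least 10.4-fold at d6 (adjusted p = 1.4e-07). From d4 to d6 it rose further in 3c3 (1.53, adjusted p = 0.0082), whereas the step in Cl19 was -0.50 (adjusted p = 0.52).

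The d6 change of *Cdx2* was larger in 3c3, with a difference of -1.66 (SE 0.49, adjusted p = 0.022) and -1.66 with the replicate block (adjusted p = 0.017). This call was lost when replicate 1 of Cl19 at d0, replicate 1 of Cl19 at d6, replicate 3 of 3c3 at d0 or replicate 1 of 3c3 at d6 was left out (values over all 12 such fits from -1.85 to -1.37, adjusted p up to 0.062), and without the slide of replicate 3 of 3c3 (-1.76, adjusted p = 0.072; all alternatives 0.0011 to 0.072). Primary SMCs were below the background limit on both arrays (3.16 and 3.23), so 3c3 at d6 was at least 6.40-fold above them (adjusted p = 3.1e-07) and Cl19 at d6 at least 1.18-fold (adjusted p = 0.066). The Cl19 comparison passed in the authors' table alone (-2.72, adjusted p = 1.2e-06), and over all alternatives it ran from -2.72 to -0.11 and the adjusted p from 1.2e-06 to 0.59.

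*Elf3* (chromosome 13, 48258870 to 48258899 in rn4), an ETS factor of epithelial cells, changed little in Cl19. Its levels there were 4.55, 4.49 and 4.61 at d0, 3.72, 3.85 and 4.58 at d2, 4.21, 4.38 and 4.11 at d4, and 5.01, 4.56 and 4.83 at d6. The days overlapped in part, and no change between days passed the test. In 3c3 the levels were 3.65, 3.21 and 3.27 at d0, 3.81, 3.28 and 3.56 at d2, 3.32, 1.42 and 1.15 at d4, and 4.20, 3.22 and 3.79 at d6. Replicates 2 and 3 of d4 were lower than all other arrays of the lines and below the background limit, and replicate 1 was not. The fitted change at d4 was -1.41 (adjusted p = 0.0073), at least 1.23-fold lower than d0. It did not pass in the authors' table (-0.66, adjusted p = 0.16), with the floor (-0.30, adjusted p = 0.60), with normexp background correction (adjusted p = 0.085), in a fit of 3c3 alone (adjusted p = 0.051) or without the slide of replicate 3 (adjusted p = 0.12; all alternatives 0.0017 to 0.60).

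From d4 to d6 *Elf3* rose in 3c3 on the fitted scale (1.77, adjusted p = 0.0066), with 1 and 2 of 3 arrays well above background, and the change from d0 to d6 was 0.36 (adjusted p = 0.47), beside 0.25 in Cl19 (adjusted p = 0.63). The d6 changes differed between the lines by -0.11 (adjusted p = 0.95), a sign that turned in 3 alternatives. Primary SMCs had 0.22 and 0.20, and Cl19 at d6 was at least 2.04-fold above them (adjusted p = 1.2e-08). Of 15 other ELF and epithelial ETS genes and their epithelial partners 14 had a probe and 13 were tested, of which 8 were higher and 4 lower at d6 in Cl19, and in 3c3 4 were higher and 1 lower (medians 1.09 and 0.43, and 0.55 and 0.19 with normexp background correction). *Spdef*, a factor of secretory epithelium, rose in both (2.74, adjusted p = 8.6e-06, and 2.95, adjusted p = 5.5e-06), as did *Ets1* (1.39, adjusted p = 4.2e-05, and 1.88, adjusted p = 1.9e-06) and *Ets2*, which trophoblast needs (1.43, adjusted p = 7.4e-07, and 1.28, adjusted p = 4.9e-06). *Etv5* fell (-2.68, adjusted p = 1.4e-07, and -1.42, adjusted p = 0.00030). The summed signal was 17550 to 18890 at d0 and 17060 to 19910 at d6 in Cl19 and 18590 to 19040 and 22810 to 27620 in 3c3, with *Klf5* the brightest gene at d0.

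*Ascl2* (chromosome 1, 203242146 to 203242205 in rn4), an imprinted gene that the spongiotrophoblast needs, had its highest levels in Cl19 at d4. The Cl19 levels were 3.42, 3.42 and 4.04 at d0, 1.88, 5.64 and 6.93 at d2, 7.23, 6.93 and 7.11 at d4, and 4.41, 4.82 and 5.40 at d6. The array that stood apart at d2 was below the background limit, as were all 3c3 arrays of d2, while the other Cl19 arrays of d2 were above all d6 arrays. In 3c3 the levels were 3.29, 0.18 and 0.20 at d0, 1.41, 1.18 and 1.09 at d2, 4.67, 3.10 and 4.30 at d4, and 6.86, 2.72 and 4.45 at d6. Replicate 1 of d0 overlapped with d4 and d6, and the d6 arrays lay far apart.

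In Cl19 *Ascl2* rose by d4 (3.47, SE 1.04, adjusted p = 0.0098), in 3 of 3 slides, and the d6 change was 1.25 (adjusted p = 0.34). The d2 change was 1.19 (adjusted p = 0.48), and without replicate 1 of Cl19 at d2 it was 2.66 and passed (adjusted p = 0.040; all alternatives 0.040 to 0.66), with a d2 mean of 6.28 in place of 4.82. In 3c3 it was at least 2.11-fold higher at d4 than at d0 (adjusted p = 0.041) and at least 3.31-fold at d6 (adjusted p = 0.010), in 3 of 3 slides each. The d4 call was lost in 5 alternatives, the floor (1.08, adjusted p = 0.40) and the fit without the slide of replicate 3 (2.15, adjusted p = 0.30) among them, and ran from 0.013 to 0.54. The d6 call was lost without replicate 1 of 3c3 at d6 (2.36, adjusted p = 0.075), with the floor (1.73, adjusted p = 0.12), with normexp background correction (0.66, adjusted p = 0.078), with the methods' t-test (adjusted p = 0.18) and without the slide of replicate 3 (3.05, adjusted p = 0.095; all alternatives 0.0024 to 0.18). The d6 changes did not differ past the threshold between the lines (-2.20, SE 1.47, adjusted p = 0.38). Primary SMCs had 5.38 and 5.82, between the d0 and the d4 levels of Cl19.

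Read day by day, *Gata2* was highest at d2, while *Gata3* in Cl19 and *Cdx2* in 3c3 changed more after d2 than before. From d0 to d2, 4 of 9 genes passed in Cl19, where 22.6% of all tested probes did, and 3 of 9 in 3c3, where 19.1% did. From d0 to d4, 5 of 9 passed in Cl19 (background 47.3%) and 6 of 9 in 3c3 (37%). Between d2 and d4 the counts were 3 of 9 (20.6%) and 2 of 9 (8.71%), and between d4 and d6 they were 1 of 9 (6.95%) and 3 of 9 (10.5%).

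At d0 none of the 9 genes differed between Cl19 and 3c3 by limma, where 3.07% of all tested probes did, though 5 of 9 had an unadjusted p below 0.05. The nearest was *Elf3*, higher in Cl19 by 1.18 (adjusted p = 0.14), and *Tcfap2c* was lower in Cl19 by -2.27 (adjusted p = 0.19). The d2 changes also differed in 0 of 9 genes by limma (0.323% of all tested probes), with 1 of 9 at an unadjusted p below 0.05. Without replicate 1 of Cl19 at d2 the *Tcfap2c* difference moved from 0.02 to -1.47 (adjusted p = 0.34) and that of *Gata2* from 1.98 to 2.29 (adjusted p = 0.054; all alternatives 0.054 to 0.68). The d6 changes differed in 4 of 9 (17.4%), *Tcfap2c* and *Gata3* in the direction of Cl19 and *Tcfap2e* and *Cdx2* in the direction of 3c3. Compared with primary SMCs, 6 of 9 genes differed from Cl19 at d6, where 71.4% of all tested probes did, and 6 of 9 from 3c3 at d6, where 71.5% did. Of these, 3 were higher and 3 lower in primary SMCs in each comparison. These shares were below those of all probes and say nothing particular about the 9 genes.

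Genes with the most similar course were sought by Pearson's r over the 8 means of line and day (n = 8) among 11098 genes with a symbol, for the 7 members whose means spanned at least 2 log2 units. The spans were 10.82 for *Tcfap2e* and 2.83 to 5.87 for the other 6, and the points share arrays and lines. For *Tcfap2e* the nearest were *Slc7a6os* (r = 0.996) and *Tex19.2* (0.995), a gene known from germ cells and placenta. *Tex19.2* went from 9.74 at d0 to 3.48 at d6 in Cl19 and from 10.16 to 5.28 in 3c3. For *Gata3* they were *Mag* (0.993), *Ppp2r3a* (0.983) and *Rab40c* (0.983), and for *Cdx2* they were *Zfp276* (0.983), *Xylb* (0.977) and the SOX factor gene *Sox5* (0.977). *Sox5* rose from 5.63 to 7.16 in Cl19 and from 5.84 to 9.16 in 3c3 between the d0 and d6 means. The nearest to *Elf3* were *Svbp* (0.956), *Pigw* (0.931) and *Rnf215* (0.930), and to *Ascl2* they were *Siah2* (0.953), *Anxa6* (0.940) and *Cerk* (0.938). For *Tcfap2c* they were *Hhipl1* (0.929), *Pkib* (0.928) and *Sema7a* (0.918), and for *Gata2* they were *Cercam* (0.926), *Ppp2r5a* (0.914) and *Adgrl1* (0.914). Without replicate 1 of Cl19 at d2 the r of *Hhipl1* with *Tcfap2c* was 0.861 and that of *Cercam* with *Gata2* 0.899. A high r can go with low levels or a small change. *Mag* had d0 and d6 means of 0.83 and 2.96 in Cl19 and of 0.67 and 0.97 in 3c3. Those of *Svbp* were 13.64 and 13.71 in Cl19 and 13.31 and 13.24 in 3c3. Shared regulation was not tested.

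Since these factors are known from trophoblast, trophoblast markers were examined beside them. Of 16 listed trophoblast stem cell genes, 4 of which are *Tcfap2c*, *Gata3*, *Cdx2* and *Elf5* themselves, 15 had a probe and 13 were tested. At d6, 7 were higher and 0 lower in Cl19, and in 3c3 7 were higher and 4 lower, and 6 were higher in both (medians 1.43 and 1.47, and 0.67 and 0.19 with normexp background correction), where 5371 and 4803 of all 24441 tested probes were higher. The T-box factor *Eomes* rose in both lines (3.22, adjusted p = 0.00017, and 2.92, adjusted p = 0.00055), as did *Bmp4* (5.60, adjusted p = 4.9e-10, and 4.38, adjusted p = 2.2e-08) and *Sox2* (5.57, adjusted p = 1.5e-06, and 3.00, adjusted p = 0.0014). In 3c3 *Satb1* (-2.66, adjusted p = 0.00034), *Fgfr2* (-1.77, adjusted p = 0.00087) and *Hand1* (-1.53, adjusted p = 0.018) fell, beside *Tcfap2c*. *Sox2* was below the background limit on all d0 arrays, and *Bmp4* and *Sox2* are also active outside trophoblast. The summed signal went from 1659 to 2220 at d0 to 3847 to 5390 at d6 in Cl19 and from 3732 to 4311 to between 5381 and 5830 in 3c3, with 5823 and 5919 in primary SMCs. *Sox21* was the brightest gene in Cl19 at every day, *Tcfap2c* in 3c3 at d0 and *Bmp4* in primary SMCs.

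Markers of differentiated trophoblast were mixed. Of 22 listed genes 18 had a probe and 9 were tested, of which 1 was higher and 4 lower at d6 in Cl19, and in 3c3 1 was higher and 2 lower (medians -0.86 and -0.10). In the authors' table the medians were -0.35 and 0.27, with normexp background correction -0.11 and 0.01, and with the floor the 3c3 median was 0.05. *Pgf*, which encodes placental growth factor, rose (2.85, adjusted p = 1.2e-05, and 5.54, adjusted p = 5.3e-09), while *Plac1* (-2.58, adjusted p = 0.00020, and -1.88, adjusted p = 0.0038) and *Rhox9* (-2.74, adjusted p = 2.3e-08, and -0.75, adjusted p = 0.016) fell. At d2 *Plac1* was above d0, past the threshold in Cl19 (1.59, adjusted p = 0.025) and not in 3c3 (1.36, adjusted p = 0.063). Of the defining markers *Gcm1* was well above background on 0 of 26 arrays. *Tpbpa* was so on 2 of 3 arrays in Cl19 at d0, 1 of 3 in 3c3 at d0 and no other, and *Prl3d1*, a giant cell hormone gene, on 3 of 3 arrays in every group of the lines but 3c3 at d4 and d6 (2 of 3 each), at means of 2.75 to 3.54. On the normalized scale *Prl3d1* was higher in primary SMCs, with a mean of 4.46 (adjusted p = 0.0018 against Cl19 at d6 and 0.041 against 3c3 at d6). The lowest signal well above background averaged 3.77 on the primary SMC arrays. How this difference depends on the normalization was not tested. The summed signal went from 31190 to 32790 at d0 to 9797 to 11970 at d6 in Cl19, and from 18460 to 19930 to between 9688 and 19840 in 3c3. At d2 it was 25670 to 33180 in Cl19 and 30580 to 36580 in 3c3. *Phlda2* was the brightest gene in Cl19 at d0 and d6 and *Rhox9* in 3c3 at d0. The label trophoblast-type stands for where the members are known from, and whether the cells were trophoblast was not tested.

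Markers of other cell types moved over the same days, and their part in the changes of the 9 genes was not tested. Of the smooth muscle markers 5 of 8 tested rose in each line with 1 lower in 3c3 (9 listed, 8 with a probe, medians 2.95 and 2.35, and 1.25 and 0.94 with normexp background correction). *Tagln* (6.54, adjusted p = 1.9e-11, and 5.95, adjusted p = 8.9e-11), *Lmod1*, *Cnn1* (3.56, adjusted p = 3.4e-11, and 2.67, adjusted p = 2e-09) and *Des* were among those that rose, *Mylk* and *Synpo2* did not pass, *Myocd* had a fitted change of 0.05 (adjusted p = 0.92) and -1.20 (adjusted p = 0.0040), and *Myh11* had no probe. Their summed signal was 1847 to 2237 at d0 and 61150 to 73100 at d6 in Cl19, 1452 to 1690 and 28950 to 45980 in 3c3 and 94400 to 96670 in primary SMCs, with *Smtn* the brightest gene at d0 and *Tagln* later. Epithelial markers, which many AP-2 and *Elf3* targets belong to, rose as well, 10 of 11 in Cl19 and 8 of 11 in 3c3 with 0 lower (11 listed, medians 2.95 and 2.21). *Krt7* (10.93, adjusted p = 1.6e-07, and 7.99, adjusted p = 1.2e-05), *Cldn7*, *Cldn4* and *Cdh1* led them, *Krt18* was the brightest, and the summed signal was 135200 to 144400 at d0 and 357800 to 386200 at d6 in Cl19, 138500 to 148200 and 263500 to 283600 in 3c3 and 1751 and 1835 in primary SMCs.

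Primitive and visceral endoderm markers were split. Of 16 listed genes, all with a probe, 15 were tested, with 4 higher and 10 lower at d6 in Cl19, and in 3c3 4 were higher and 6 lower (medians -2.24 and -0.26). *Apoa1* (6.07, adjusted p = 6.3e-09, in Cl19, and below the background limit on every d0 array of 3c3), *Ttr* and *Afp* rose and *Cubn* fell (-4.93, adjusted p = 2.7e-08, and -2.06, adjusted p = 0.00082). *Col4a1* was the brightest, and the summed signal went from 238700 to 250900 at d0 to 51180 to 81250 at d6 in Cl19 and from 215600 to 243500 to between 165200 and 194400 in 3c3. Of 6 fibroblast genes, all tested, 4 were higher in Cl19 and 1, *Col1a1*, in both lines. Their summed signal was 70.1 to 87.4 at d0 and 8438 to 13980 at d6 in Cl19, and 59.1 to 98.7 and 337.0 to 1775 in 3c3. In primary SMCs it was 139100 and 140100, above all arrays of the lines, and *Col1a1* was the brightest.

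Neural crest markers, which bear on *Tcfap2a* and *Tcfap2b*, had 6 listed genes, all with a probe, and 4 tested. Of them 2 were higher in Cl19 and 1 was higher and 1 lower in 3c3. *Sox10* was higher in both (6.84, adjusted p = 1.3e-07, and 4.06, adjusted p = 9.1e-05), and *Foxd3* and *Pax3* were each well above background on 1 of 26 arrays. *Ngfr* was the brightest gene at d0 and *Sox10* at d6, and the summed signal went from 228.8 to 270.3 at d0 to 1274 to 4557 at d6 in Cl19 and from 61.9 to 88.5 to between 189.1 and 683.1 in 3c3, with 107.7 and 120.0 in primary SMCs, below both lines at d6. Endothelial markers, beside *Gata2*, had 7 listed genes and 6 tested, with 3 lower in Cl19, and in 3c3 1 was higher and 1 lower. *Pecam1* fell in both (-3.72, adjusted p = 4.3e-05, and -2.11, adjusted p = 0.0080), *Cdh5* stayed near the background limit with means of 2.37 to 3.17 in the lines, and the sum went from 245.4 to 296.2 to between 58.1 and 88.2 in Cl19 and from 148.7 to 178.7 to between 190.4 and 224.4 in 3c3, with *Vwf* the brightest in Cl19 and *Pecam1* in 3c3 at d0. Of 7 blood genes 6 had a probe and 3 were tested, with 1 lower in Cl19 and none past the threshold by limma in 3c3. *Ptprc*, the marker that defines blood cells, was well above background on 1 of 24 arrays of the lines and on both primary SMC arrays. *Cd68* or *Cd14* was the brightest in every group. The sum was 139.6 to 272.5 in the lines and higher, 862.1 and 895.8, in primary SMCs.

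Promoters of the members were read from RefSeq (assembly GRCr8, 250 bases before to 50 after the start) because AP-2 proteins have a known DNA motif. A promoter was found for 6 of 10 members, *Tcfap2e*, *Gata2*, *Gata3*, *Cdx2*, *Elf3* and *Ascl2*, and none for *Tcfap2a*, *Tcfap2b*, *Tcfap2c* and *Elf5*. On either strand the AP-2 motif GCCNNNGGC occurred 2 times in *Gata3*, 2 times in *Cdx2* and 1 time in *Gata2*, and 0 times in *Tcfap2e*, *Elf3* and *Ascl2*, beside 15.1% of all 33469 promoters of that length that hold it. The GATA motif AGATAA was in none of the 6 and in 11.6% of all. The SMAD motif CAGA was in *Tcfap2e*, *Gata3*, *Cdx2*, *Elf3* and *Ascl2*, not in *Gata2*, and in 95.9% of all. CAGAC, which contains CAGA, was in *Tcfap2e*, *Gata3* and *Cdx2* and in 50.1% of all. The GC content was 59.3% to 69% in the 6 promoters and 51.7% at the median of all. A match is a description of letters and not a binding site. The promoters of *Tcfap2e*, the gene that fell furthest, and of *Gata3* and *Cdx2*, the members with 2 matches each, are shown 5′ to 3′ with AP-2 motif matches in capitals. *Gata2* and *Ascl2*, which also rose, are not shown. The positions are *Tcfap2e* at chr5:144314569-144314868 (minus strand), *Gata3* at chr17:73553298-73553597 (plus strand) and *Cdx2* at chr12:12762654-12762953 (plus strand).
Tcfap2e: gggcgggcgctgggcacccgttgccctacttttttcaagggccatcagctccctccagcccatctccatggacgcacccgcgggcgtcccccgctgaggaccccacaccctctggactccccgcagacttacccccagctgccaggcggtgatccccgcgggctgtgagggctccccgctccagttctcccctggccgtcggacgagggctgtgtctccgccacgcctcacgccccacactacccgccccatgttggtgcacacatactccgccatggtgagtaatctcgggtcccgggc
Gata3: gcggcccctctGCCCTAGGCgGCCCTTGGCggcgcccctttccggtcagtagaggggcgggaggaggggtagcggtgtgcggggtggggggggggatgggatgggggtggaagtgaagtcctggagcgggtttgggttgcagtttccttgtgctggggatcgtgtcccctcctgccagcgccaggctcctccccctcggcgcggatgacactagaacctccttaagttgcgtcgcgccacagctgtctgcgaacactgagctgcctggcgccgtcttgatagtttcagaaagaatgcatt
Cdx2: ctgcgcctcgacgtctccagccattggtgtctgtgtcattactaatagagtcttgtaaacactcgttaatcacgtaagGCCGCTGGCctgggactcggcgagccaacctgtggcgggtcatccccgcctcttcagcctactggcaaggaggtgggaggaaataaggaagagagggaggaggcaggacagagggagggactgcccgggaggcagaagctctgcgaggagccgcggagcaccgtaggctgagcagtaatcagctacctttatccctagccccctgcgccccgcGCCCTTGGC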

How the data were processed

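The members and the gene lists were chosen with earlier results of these data known. The authors hybridized Cy3-labeled RNA to Agilent rat arrays, 1 sample per array, and deposited the scanner intensity of each feature, corrected for background by Agilent Feature Extraction 10.1.1.1, and a log2 table of the same intensities. The authors' text describes quantile normalization between arrays, which the deposited table does not carry. Here log2 intensities of 43379 gene features were quantile-normalized over 26 arrays, outlier features were left out and features of the same probe averaged. A linear model over the 9 groups was fitted by limma 3.58.1 (R 4.3.3), with Benjamini-Hochberg adjustment over 24441 probes and a threshold of 0.05. Tables and figures were made in Python 3.11.15. Probes received symbols by accession (16336 of 41012) or by gene name (3739), from a gene table of GRCr8.

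From each list, up to 4 genes past the threshold in the same direction in both lines were named, those with the largest mean d6 change, and other genes were named after their values were seen or are defining markers. Some genes of these lists and of the similar courses, and 1 whole list, are not reported here. The similar courses were limited to probes with a symbol after the values were seen, since many of the nearest probes carried only a clone or transcript number. Values were also computed with the authors' log2 table, 75th percentile scaling, normexp background correction with an offset of 50, a floor at the lowest signal well above background, no filter, a replicate block (slide), a fit per line, the methods' t-test with and without adjustment and leaving out each array of d0 and d6 or the 4 arrays of a 3c3 slide. Their use on d2, d4 and primary SMC comparisons, and the fit without replicate 1 of Cl19 at d2, were chosen after seeing the data. The methods' selection by the area between a time course and its d0 level was not run. Pairing by slide was used as the block, since deviations from group means correlated by more than 0.1 within slides in 16 of 18 pairs of arrays in Cl19 (lowest 0.06) and in 18 of 18 in 3c3 (lowest 0.20).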

Additional observations from a re-analysis of the deposited data

Results flagged for a closer look

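The change from d0 to d6 differed between Cl19 and 3c3 in 4 genes by the test of the difference itself. For *Tcfap2c* the Cl19 change minus the 3c3 change was 3.46 (SE 1.14, adjusted p = 0.041), a call lost with the replicate block (adjusted p = 0.0503) and in 9 of 12 fits that left out 1 array. For *Tcfap2e* it was -3.43 (SE 0.52, adjusted p = 9.8e-05), lost with normexp background correction (adjusted p = 0.082). For *Gata3* it was 3.70 (SE 0.64, adjusted p = 0.00037), but this gene entered the test through Cl19 at d4 and d6 alone. For *Cdx2* it was -1.66 (SE 0.49, adjusted p = 0.022), lost in 4 of 12 fits that left out 1 array and without a 3c3 slide (adjusted p = 0.072). What lies behind these differences was not tested. Single arrays far from their group, such as replicate 1 of Cl19 at d2, were described but not tested. No group had more than 3 arrays.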

How the results depend on the processing

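For 64 tested results of the members, 671 values under alternatives were computed. Direction and side of the threshold were kept in 591, the call was lost in 63 and gained in 8, and the direction turned in 9. These include the methods' t-test without adjustment, which gave 2 of the calls gained and 2 of those lost. It turned for *Tcfap2c* in the difference of the d2 changes (-1.47 without replicate 1 of Cl19 at d2). In the authors' table it turned for *Gata2* in primary SMC minus Cl19 d6 (-1.43) and minus 3c3 d6 (-1.63), for *Ascl2* in the same comparisons (-1.57 and -1.21) and for *Elf3* in the d4 change in Cl19 (0.058). For *Elf3* the difference of the d6 changes turned to 0.015 with normexp background correction, 0.0093 without replicate 2 of Cl19 at d6 and 0.12 without replicate 1 of 3c3 at d6, and was -0.37 without replicate 2 of 3c3 at d6. The cause was not tested.

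Counts of probes past the threshold moved by more than 1.5 times in 4 cases: the d2 change in 3c3 (4662) to 6996 with the replicate block and to 2283 without the 4 arrays of a 3c3 slide, and without these arrays the d4 change in 3c3 (9037) to 5487 and the difference of the d6 changes (4263) to 2728, with fewer arrays in these fits. Leaving out each array of d0 and d6 in turn gave 11341 to 12913 probes for the d6 change in Cl19 (12765 with all arrays), 10392 to 11796 in 3c3 (11792) and 3510 to 4643 for the difference. Every member had 1 probe, so the mean over all probes of a gene gave no other value. In groups with no array well above background the standard deviation of the log2 levels differed widely. It was 0.0090 for *Elf3* in primary SMCs and 0.98 for *Tcfap2b* in 3c3 at d4. Whether the spread depends on the level was not tested. Changes of dim probes shrank with normexp.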
